A study of Mus musculus with 15 samples.

Results

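Mouse embryonic fibroblasts were profiled on expression arrays after loss of histone deacetylase 1, reduction of histone deacetylase 2, or both. Of 18193 genes with a symbol, 61 had a probe set near the array floor in control cells and bright once both enzymes were reduced. For 12 of the 61 another probe set of the gene was at least 50 in control cells. A gene was taken when a probe set annotated to it alone had a mean intensity below 50 on the 3 control arrays and of at least 500 on the 3 arrays of cells with both perturbations. Of several such probe sets of a gene, the one with the highest mean over the 15 arrays was used. Before 8 named genes were set aside (Bex1, Bex2, Bex4, Cox6b2, Mgst1, Dcn, Sfrp1 and Dkk2, of which 5 passed the limits), 74 probe sets of 66 genes passed. The control and combined values therefore chose these genes: they are given below as a description, without a test, and so is every level set against control. Tests were run only between the 3 groups that the choice did not use.

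HDAC1 and HDAC2 are paralogous deacetylases that take acetyl groups off lysines of histones and other proteins. Both serve as catalytic subunits of the same corepressor complexes, Sin3, NuRD and CoREST, which DNA-binding factors bring to genes, and either enzyme can stand in for the other at many of them. Acetylated histones are a mark of active promoters and enhancers, and deacetylation is a step in keeping genes silent in a cell type that does not use them.

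All cells were primary male fibroblasts. In 4 of the 5 groups both Hdac1 alleles were floxed, and the cells had been transduced with a retrovirus for Cre-ERT2, a recombinase that becomes active with tamoxifen, and another retrovirus for a micro-RNA that targeted Hdac2 or was scrambled. Control cells carried the scrambled micro-RNA and received ethanol. KO cells carried the scrambled micro-RNA and received 200 nM tamoxifen, which deletes Hdac1. Kd cells carried the micro-RNA against Hdac2 and received ethanol. KO/Kd cells carried the micro-RNA against Hdac2 and received 200 nM tamoxifen. Cells of the fifth group, here +/+ tamoxifen, had intact Hdac1 alleles and received tamoxifen, and their viruses are not named in the labels. Each group had 3 arrays. The labels do not tell whether the arrays of a group were separate cultures, and the p-values below therefore cover only the spread among these arrays, which may be technical.

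The target genes followed the labels. Hdac1 had a mean intensity of 3557 ± 101 in control and 156 ± 48.6 in KO/Kd cells, and Hdac2 of 7051 ± 449 and 1025 ± 9.88 (SD, n = 3). Array medians lay between 24.1 and 30.7, with the KO/Kd arrays highest (29.1 to 30.7, against 24.1 to 25.1 in control), and their part in the levels below was not tested. An intensity below 50 is thus not far above the median probe set of an array. The table holds no detection calls, so "silent" below means only a group mean under 50, and "on" one of at least 500.

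Promoter stretches of 9 of the genes are shown first, for 3 patterns outside the KO/Kd cells that the results return to. The patterns overlap, since Krt20 fits the first as well as the second, and some of the genes, such as Pdgfd and Tro, fit none of them. Each is the 120 bases before the annotated start, from RefSeq on GRCm38.p6, written 5′ to 3′ on the gene's strand with every CG dinucleotide in capitals. Itih5 (chr2:10153423-10153542, plus strand), Gprasp2 (chrX:135838914-135839033, plus strand) and Dsp (chr13:38151174-38151293, plus strand) stand for genes that were silent in every group but KO/Kd.
Itih5: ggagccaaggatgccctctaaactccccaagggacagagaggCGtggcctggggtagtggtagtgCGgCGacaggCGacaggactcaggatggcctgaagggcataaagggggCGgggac
Gprasp2: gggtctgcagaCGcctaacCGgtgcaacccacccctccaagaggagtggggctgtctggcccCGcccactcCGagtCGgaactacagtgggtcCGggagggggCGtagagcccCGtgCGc
Dsp: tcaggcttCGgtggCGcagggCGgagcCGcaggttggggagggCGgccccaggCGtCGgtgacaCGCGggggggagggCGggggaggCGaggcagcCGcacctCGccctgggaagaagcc
Notch3 (chr17:32166891-32167010, minus strand), Nppb (chr4:147985780-147985899, plus strand) and Krt20 (chr11:99438154-99438273, minus strand) stand for genes that were higher in KO than in Kd cells.
Notch3: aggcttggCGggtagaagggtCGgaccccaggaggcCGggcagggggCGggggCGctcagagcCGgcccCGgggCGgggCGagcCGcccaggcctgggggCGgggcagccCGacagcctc
Nppb: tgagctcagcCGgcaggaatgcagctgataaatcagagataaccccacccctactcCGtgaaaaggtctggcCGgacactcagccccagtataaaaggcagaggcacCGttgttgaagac
Krt20: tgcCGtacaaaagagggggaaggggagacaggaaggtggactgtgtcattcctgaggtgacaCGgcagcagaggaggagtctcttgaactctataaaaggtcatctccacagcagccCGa
Tmtc1 (chr6:148444353-148444472, minus strand), Epha7 (chr4:28813011-28813130, plus strand) and Wnt5b (chr6:119544348-119544467, minus strand) stand for genes that were higher in Kd than in KO cells.
Tmtc1: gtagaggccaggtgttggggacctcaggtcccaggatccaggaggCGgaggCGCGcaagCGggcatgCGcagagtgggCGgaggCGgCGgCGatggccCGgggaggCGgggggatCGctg
Epha7: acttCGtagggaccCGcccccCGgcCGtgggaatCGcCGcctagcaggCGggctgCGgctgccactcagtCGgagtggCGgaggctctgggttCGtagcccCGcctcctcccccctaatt
Wnt5b: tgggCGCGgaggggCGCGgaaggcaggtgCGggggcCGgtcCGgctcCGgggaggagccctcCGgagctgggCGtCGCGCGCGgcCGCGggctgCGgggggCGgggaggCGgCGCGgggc
The stretches held 5, 9 and 13 CG dinucleotides in the first set. They held 12, 4 and 3 in the second and 12, 12 and 21 in the last, in the order shown. The examples do not span the CG content of their patterns: Tfpi, higher in Kd, held 2 and Efna3, higher in KO, held 16.

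On the probe sets that met the limits, most of these genes stayed far below 500 with either enzyme reduced alone. Their median group mean was 34.3 in control (range 13.7 to 48.6), 45.8 in KO (13.3 to 380.1), 51.9 in Kd (14.0 to 779), 50.8 in +/+ tamoxifen (14.6 to 1514) and 903 in KO/Kd cells (502.5 to 2894). In KO cells 34 genes were silent, 27 lay between the limits and 0 were on. In Kd cells 30 were silent, 30 lay between and only Foxp2 was on, and in +/+ tamoxifen cells 30 were silent, 30 lay between and only Tfpi was on. Other probe sets of the same genes were not all dim: counting any probe set, 4 genes were on in KO (Ssbp2, Stom, Tcim and Tcn2), 5 in Kd (Foxp2, Serpinb1a, Ssbp2, Tcn2 and Tfpi) and 4 in +/+ tamoxifen cells (Ssbp2, Tcim, Tcn2 and Tfpi). Of all 8655 genes of the array below 50 in control by their brightest probe set, 0% reached 500 in KO, 0.0231% in Kd, 0.0578% in +/+ tamoxifen and 0.647% in KO/Kd cells. The last share uses the limits that chose the genes, though on the brightest probe set alone. In these bulk samples, fewer cells with a transcript and less of it per cell cannot be told apart.

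**Figure D1:**
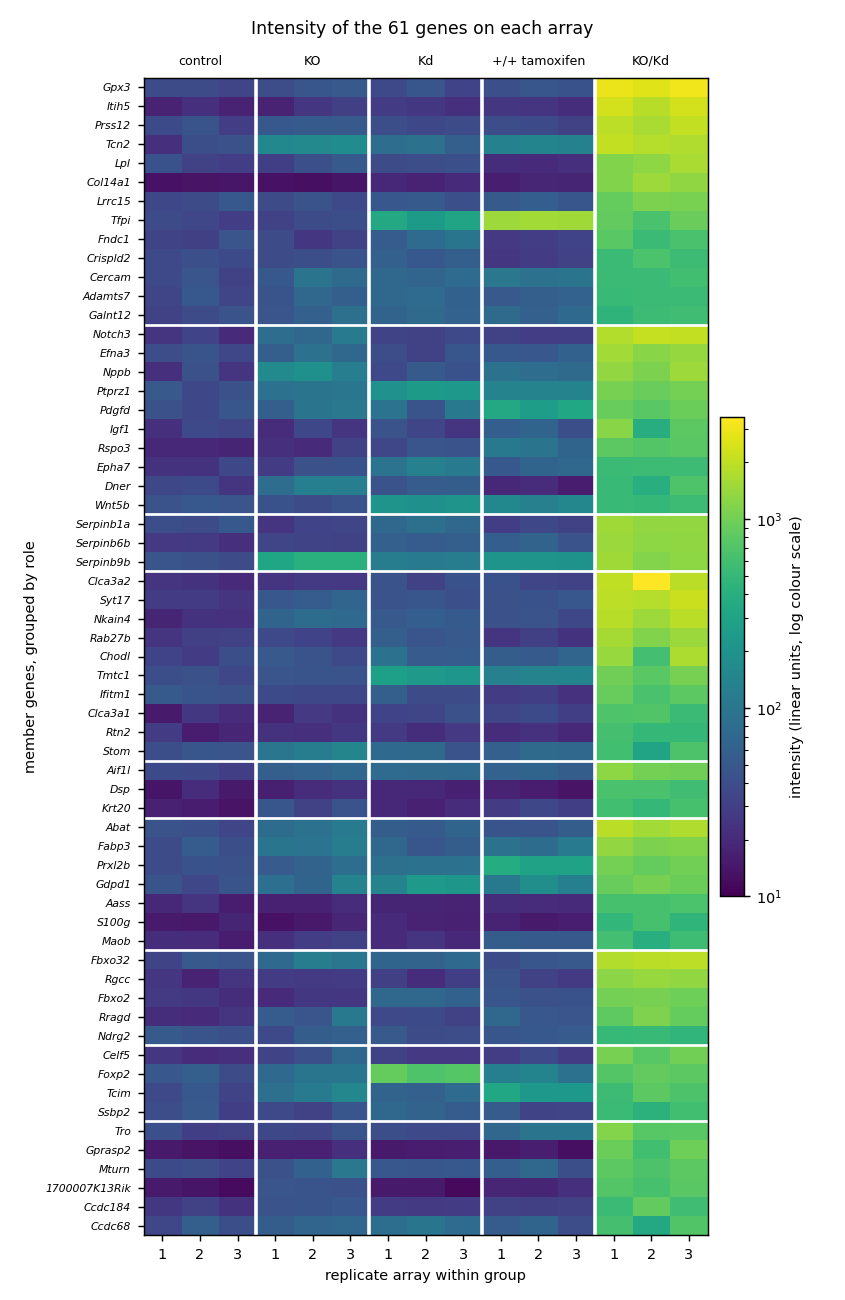
Intensity of the 61 genes (rows, grouped by role with white lines between roles and sorted within a role by KO/Kd level) on each of the 15 arrays (columns, 3 per group), on a log colour scale from dark (about 10) to yellow (above 2000). The KO/Kd columns are bright in every row, as the choice requires, and the only other rows as bright are Tfpi in +/+ tamoxifen and Foxp2 in Kd cells.

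On the same probe sets, the combined level was far above what the single perturbations added up to for most of the genes. For 59 of 61 the lowest KO/Kd array was above all 12 arrays of the other groups, which was so for 24.3% of all genes, and the exceptions were Foxp2 and Tfpi. The median ratio of KO/Kd to control was 31.2 (10.8 to 112.4) and that of KO/Kd to the higher of KO and Kd 15.8 (1.03 to 86.1). The excess over control in KO plus that in Kd came to a median of 4.24% of the excess in KO/Kd cells, and to under 10% for 44 genes. It was above 25% for 4 genes, Foxp2 at 102%, Tfpi at 34.4%, Serpinb9b at 31.8% and Wnt5b at 31.5%. These ratios rest on the values that chose the genes and carry no test. Summed over the 61 genes, an array read 1892 to 2089 in control, 3248 to 4194 in KO, 4580 to 4860 in Kd, 5493 to 5755 in +/+ tamoxifen and 60727 to 66305 in KO/Kd cells.

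**Figure D2:**
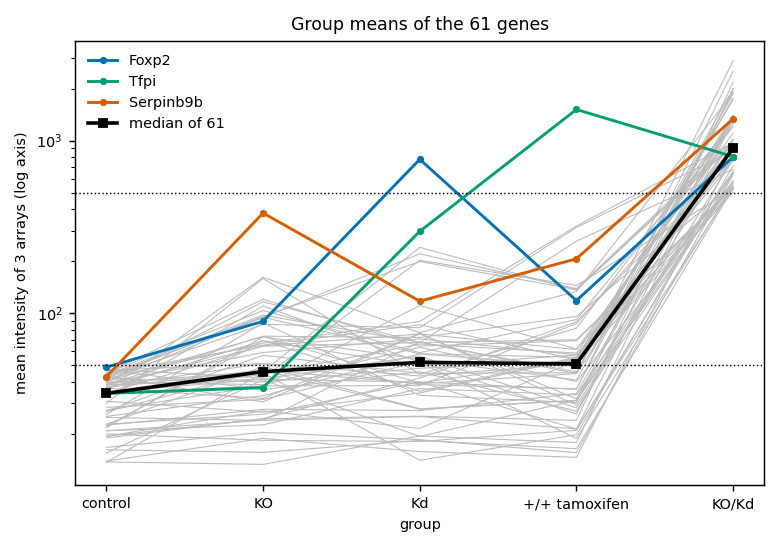
Mean intensity of 3 arrays (log axis) for each of the 61 genes in the 5 groups, 1 grey line a gene, with the median in black and the limits of 50 and 500 dotted. The median runs from 34.3 in control to 50.8 in +/+ tamoxifen and 903 in KO/Kd cells, and Foxp2, Tfpi and Serpinb9b are coloured because they leave the floor in other groups.

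Secreted and matrix proteins were the largest role, with 13 genes between 532 and 2894 in KO/Kd cells, and 11 of them stayed below 100 in KO, Kd and +/+ tamoxifen cells. Gpx3, the secreted glutathione peroxidase, read 39.1, 38.1 and 34.1 on the control arrays, 40.02, 48.5 and 51.9 in KO, 36.1, 48.3 and 32.5 in Kd, 41.9, 48.4 and 43.5 in +/+ tamoxifen and 2927, 2640.2 and 3116 in KO/Kd cells. Its Kd arrays overlapped those of every other low group. Itih5, a heavy chain of the inter-alpha-trypsin inhibitor family that binds hyaluronan, read 18.02, 22.3 and 17.8 in control, 17.96, 25.04 and 30.3 in KO, 27.8, 25.7 and 22.4 in Kd, 25.1, 24.9 and 21.8 in +/+ tamoxifen and 2331, 1845 and 2358 in KO/Kd cells. Its ratio of KO/Kd to control, 112.4, was the largest among the 61 probe sets. Col14a1, a collagen on the surface of fibrils, read 13.5, 13.5 and 14.3 in control, 13.2, 12.8 and 13.9 in KO, 19.8, 17.99 and 20.5 in Kd, 16.3, 18.9 and 18.2 in +/+ tamoxifen and 1162, 1477 and 1322 in KO/Kd cells. All 3 of these genes were silent in every group but KO/Kd.

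Other secreted proteins had small but separate levels in single groups. Lpl, lipoprotein lipase, was lowest in +/+ tamoxifen cells at 21.5, 20.3 and 22.1, below all its KO (29.95, 41.4 and 52.96) and Kd arrays (38.4, 39.5 and 41.7), and read 1144, 1288 and 1674 in KO/Kd cells. Tcn2, the vitamin B12 carrier transcobalamin, read 22.5, 40.8 and 42.8 in control, 154, 157 and 174 in KO, 80.5, 91.98 and 58.8 in Kd, 129.8, 140.5 and 130.3 in +/+ tamoxifen and 2063, 1823 and 1757 in KO/Kd cells. Its KO and Kd arrays did not overlap on this probe set, which is marked as able to bind related transcripts. Prss12, the secreted protease neurotrypsin, read 49.8, 52.4 and 51.0 in KO and 41.1, 35.8 and 38.8 in Kd cells, against 37.6, 45.6 and 29.2 in control and 1931, 1678 and 2064 in KO/Kd. Tfpi, the tissue factor pathway inhibitor that restrains the start of blood clotting, behaved unlike the rest. It read 39.2, 34.8 and 28.9 in control, 31.6, 38.9 and 40.7 in KO, 347, 243 and 303 in Kd, 1474, 1559 and 1508 in +/+ tamoxifen and 851, 654 and 917 in KO/Kd cells, so that the +/+ arrays were above the KO/Kd arrays. Fndc1, a protein with fibronectin type III domains, read 55.6, 76.7 and 96.8 in Kd and 39.3, 25.3 and 31.6 in KO cells. Crispld2, a secreted CAP-domain protein, read 60.2, 50.5 and 58.7 in Kd and 39.05, 41.3 and 44.3 in KO cells. Neither overlapped between Kd and KO, and their KO/Kd means were 658 ± 125 and 586 ± 65.8 (SD, n = 3). The remaining 4 were the cell-surface protein Lrrc15, the adhesion molecule Cercam, the metalloproteinase Adamts7 and the Golgi glycosyltransferase Galnt12, and they lay between 31.7 and 102 on every array outside KO/Kd.

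Ligands and receptors numbered 10, from 524 to 1961 in KO/Kd cells, and this role held the most genes with a level of their own elsewhere, since only 4 of the 10 stayed below 100 in the other perturbed groups and in +/+ tamoxifen cells. Notch3, a Notch receptor of mural cells, read 24.9, 32.4 and 20.2 in control, 80.3, 72.03 and 110.5 in KO, 33.1, 30.8 and 36.3 in Kd, 31.97, 29.2 and 29.9 in +/+ tamoxifen and 1785, 2069 and 2028 in KO/Kd cells. Only its KO arrays stood apart from the other low groups. Dner, a transmembrane protein with Notch-like repeats, read 35.9, 37.3 and 24.7 in control, 81.9, 126 and 123 in KO, 44.98, 54.4 and 56.2 in Kd, 19.7, 20.98 and 15.7 in +/+ tamoxifen and 527, 399.9 and 704 in KO/Kd cells. Nppb, which encodes B-type natriuretic peptide, read 22.3, 43.2 and 24.7 in control, 165, 188 and 123 in KO, 36.4, 52.5 and 44.0 in Kd, 88.7, 80.9 and 75.8 in +/+ tamoxifen and 1350.2, 1108 and 1493 in KO/Kd cells. For both Dner and Nppb the KO arrays lay above those of control, Kd and +/+ tamoxifen. Efna3, an ephrin ligand, had KO arrays of 58.9, 89.3 and 71.6 and Kd arrays of 39.9, 30.8 and 47.5.

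Wnt5b, a Wnt ligand of the non-canonical type, read 44.8, 50.5 and 46.5 in control, 43.5, 38.2 and 44.9 in KO, 207, 191 and 209 in Kd, 155, 128 and 151 in +/+ tamoxifen and 529, 491 and 552 in KO/Kd cells. On this probe set, marked as able to bind related transcripts, its KO arrays were at or just below the level of control and its Kd arrays above both. The other Wnt5b probe set read 36.2 ± 5.61 in control, 47.7 ± 8.33 in KO, 102 ± 16.8 in Kd and 246 ± 23.9 in KO/Kd cells (SD, n = 3). Epha7, an ephrin receptor, read 23.6, 23.4 and 35.4 in control, 28.1, 42.3 and 43.5 in KO, 93.96, 128 and 109.8 in Kd, 50.3, 65.3 and 70.6 in +/+ tamoxifen and 541, 549 and 551 in KO/Kd cells, where its spread was the smallest of the 61 (coefficient of variation 0.977%). Ptprz1, a receptor tyrosine phosphatase of glia and their precursors, read 51.3, 35.5 and 42.7 in control, 88.5, 95.5 and 99.5 in KO, 195, 242 and 225 in Kd, 139, 138 and 139 in +/+ tamoxifen and 1058, 920.5 and 1019.5 in KO/Kd cells. Its 5 groups did not overlap. Pdgfd, a ligand of the PDGF receptors, and Rspo3, an R-spondin that strengthens Wnt signalling, were higher in +/+ tamoxifen than in KO or Kd cells. Pdgfd read 340.1, 269 and 331 in +/+ tamoxifen against 59.03, 94.8 and 104 in KO and 93.4, 45.9 and 108 in Kd cells. Rspo3 read 107, 94.9 and 65.5 in +/+ tamoxifen against 22.3, 20.3 and 30.7 in KO and 34.6, 46.9 and 44.6 in Kd cells. Igf1, insulin-like growth factor 1, was the most variable of the 61 in KO/Kd cells, at 1239, 384 and 809 (coefficient of variation 52.8%), and its other arrays lay between 20.9 and 65.5. Replicate 2 was the lowest of the 3 KO/Kd arrays for 34 of the 61 genes, replicate 1 for 17 and replicate 3 for 10.

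The 3 clade B serpins, intracellular inhibitors of serine proteases, differed in which single perturbation had the higher level. Serpinb9b read 46.5, 42.8 and 39.4 in control, 313, 411 and 416 in KO, 119, 112 and 121 in Kd, 209, 208 and 203 in +/+ tamoxifen and 1533, 1180.1 and 1299 in KO/Kd cells. Serpinb1a, an inhibitor of neutrophil proteases, read 40.8, 38.6 and 50.5 in control, 24.8, 32.8 and 34.2 in KO, 70.1, 86.1 and 71.4 in Kd, 29.1, 35.4 and 31.1 in +/+ tamoxifen and 1508, 1350.0 and 1342 in KO/Kd cells. Serpinb6b read 26.3, 27.1 and 22.3 in control, 34.3, 33.4 and 32.1 in KO, 60, 55.3 and 59.1 in Kd, 57.9, 64.02 and 44.7 in +/+ tamoxifen and 1439, 1301 and 1310.0 in KO/Kd cells. Serpinb9b was thus higher in KO than in Kd cells, and the other 2 were higher in Kd, without overlap. These genes are paralogs, and signal shared between their probes was not tested.

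Membrane, vesicle and ion transport proteins numbered 10, between 528 and 2522 in KO/Kd cells, with 8 below 100 in the other groups. Clca3a2, a chloride channel accessory protein, read 24.3, 23.6 and 20.2 in control, 24.3, 26.96 and 26.6 in KO, 44.8, 31.8 and 43.3 in Kd, 43.5, 33.7 and 31.5 in +/+ tamoxifen and 2000.4, 3651 and 1914 in KO/Kd cells, with replicate 2 far above the other 2 arrays. Its neighbour and paralog Clca3a1 read 694, 712 and 547 in KO/Kd cells, with 32.5, 34.1 and 43.1 in Kd and 17.8, 26.2 and 23.7 in KO, on a probe set marked as able to bind related transcripts. Syt17, a synaptotagmin, read 28.5, 27.8 and 24.7 in control, 48.8, 54.99 and 67.2 in KO, 44.7, 47.7 and 42.01 in Kd, 42.8, 43.7 and 49.03 in +/+ tamoxifen and 1972, 1834 and 2211 in KO/Kd cells. Tmtc1, an O-mannosyltransferase of the endoplasmic reticulum, was the clearest Kd-side gene of this role. It read 40.8, 42.6 and 34.8 in control, 46.8, 45.4 and 45.3 in KO, 272, 230.5 and 219 in Kd, 129, 137 and 142 in +/+ tamoxifen and 987, 787 and 1049 in KO/Kd cells. Rab27b, a GTPase of secretory vesicles, read 36.1, 32.5 and 26.2 in KO, 59.1, 46.9 and 50.9 in Kd and 1583, 1145 and 1466 in KO/Kd cells. On the KO side, Nkain4, a partner of the sodium pump, read 65.5, 79.5 and 73.8 in KO and 51.04, 57.7 and 53.1 in Kd cells. The membrane scaffold stomatin (Stom) read 99.8, 119 and 142 in KO and 73.4, 75.5 and 44.3 in Kd cells. In KO/Kd cells Stom read 601, 308 and 677 and Chodl, a C-type lectin, 1421, 605 and 1717, so that replicate 2 was low for both. Ifitm1, an interferon-induced membrane protein, read 888, 655 and 801 in KO/Kd and 52.2, 45.4 and 42.9 in control cells. Rtn2, a reticulon, read 615, 498 and 493 in KO/Kd and 27.5, 16.1 and 18.8 in control cells.

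Among cytoskeleton and junction proteins, Dsp and Krt20 belong to epithelia by their known function. Dsp, desmoplakin of the desmosome, read 13.8, 20.9 and 15.3 in control, 16.5, 20.97 and 23.6 in KO, 18.98, 19.8 and 16.6 in Kd, 17.4, 15.6 and 13.7 in +/+ tamoxifen and 657, 658 and 582 in KO/Kd cells. Its 4 lower groups overlapped. Krt20, a keratin of intestinal epithelium, read 17.2, 15.5 and 13.7 in control, 47.7, 31.1 and 44.5 in KO, 19.8, 17.2 and 20.9 in Kd, 28.6, 35.3 and 29.8 in +/+ tamoxifen and 590.5, 494 and 634 in KO/Kd cells, with the KO arrays above those of Kd. Aif1l, an actin-binding protein, had a mean of 1103 ± 175 in KO/Kd and 34.3 ± 4.08 in control cells (SD, n = 3). Of 10 epithelial marker genes, 8 were silent in control and 9 in KO/Kd cells, and their summed level was 485 to 599 in control and 402 to 462 in KO/Kd cells. The mean was higher in KO/Kd than in control cells for 7 of them, each below 50 in both groups. No share of all genes is given beside this count, and the KO/Kd arrays had higher medians than the control arrays. The mean was lower for 3, among them Krt19 (341 in control and 223 in KO/Kd) and Epcam (51.2 and 35.8). The part of these markers in the levels of Dsp and Krt20 was not tested.

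Metabolic and binding proteins, 7 genes, ran from 521 to 1730 in KO/Kd cells. Abat, which breaks down the transmitter GABA, read 44.7, 42.2 and 33.8 in control, 79.5, 90.1 and 115 in KO, 56.4, 52.5 and 65.3 in Kd, 45.9, 45.3 and 56.9 in +/+ tamoxifen and 1904, 1544 and 1743 in KO/Kd cells. Fabp3, a fatty acid carrier of heart and muscle, likewise had KO arrays (98.4, 94.1 and 118) above its Kd arrays (72.8, 48.1 and 56.2). Prxl2b, a prostaglandin F synthase, read 38.2, 43.6 and 43.2 in control, 54.4, 64.1 and 82.4 in KO, 86.8, 90.6 and 91.1 in Kd, 378, 289 and 292 in +/+ tamoxifen and 1036, 869 and 1010.5 in KO/Kd cells. Its +/+ arrays stood apart from all of the other low groups. Gdpd1, a phospholipase D-like phosphodiesterase, read 84.97, 65.3 and 137 in KO, 138, 236 and 223 in Kd, 107, 179 and 125 in +/+ tamoxifen and 897, 1042 and 948 in KO/Kd cells. Aass, the first enzyme of lysine breakdown, lay flat at 16.1 to 24.3 on all 12 other arrays and read 636, 642 and 659 in KO/Kd cells. S100g, the calcium carrier calbindin-D9k, was as flat, at 13.2 to 20.3, and read 484, 635 and 467. Maob, a monoamine oxidase, read 55.7, 52.1 and 51.8 in +/+ tamoxifen, above its KO (22.2, 28.7 and 30.7) and Kd arrays (20.4, 24.2 and 19.8), and 611, 389.9 and 564 in KO/Kd cells.

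Among the 5 ubiquitin ligase adaptors and signalling regulators, all stayed below 100 outside KO/Kd cells on average. Fbxo32, the muscle-wasting F-box protein atrogin-1, read 33.05, 51.2 and 47.4 in control, 73.9, 118 and 99.96 in KO, 65.6, 64.1 and 73.8 in Kd, 37.7, 47.4 and 51.9 in +/+ tamoxifen and 1764, 1907 and 1942 in KO/Kd cells. Fbxo2, an F-box protein that recognises glycoproteins, had the opposite order to this Fbxo32 probe set. It read 20.6, 25.95 and 25.1 in KO and 71.3, 71.4 and 61.6 in Kd cells. In +/+ tamoxifen it read 47.6, 42.3 and 44.1 and in KO/Kd cells 1028, 1052 and 958. Rragd, a Rag GTPase of amino acid signalling to mTORC1, read 55.3, 46.6 and 107 in KO and 36.8, 37.04 and 31.96 in Kd cells, with KO replicate 3 well above the other 2. Rgcc, a regulator of cell cycle, lay between 17.9 and 45.0 on the 12 other arrays and read 1266, 1415 and 1342 in KO/Kd cells.

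Of the 4 DNA- and RNA-binding regulators, Foxp2 was the only one of the 61 at its full combined level in a single perturbation. This forkhead repressor, known from speech circuits of the brain, read 48.7, 59.1 and 38.02 in control, 73.5, 97.6 and 97.9 in KO, 886, 704 and 745 in Kd, 125, 139 and 91.1 in +/+ tamoxifen and 738, 863 and 809 in KO/Kd cells, so that Kd and KO/Kd overlapped. Celf5, an RNA-binding splicing regulator, read 33.1, 42.1 and 71.7 in KO, 30.99, 26.6 and 26.2 in Kd and 1061, 764 and 1011 in KO/Kd cells. Tcim, a small regulator of transcription and immune response, read 36.2, 50.2 and 33.1 in control, 86.7, 113 and 149 in KO, 64.9, 60.7 and 77.2 in Kd, 331, 225 and 228 in +/+ tamoxifen and 553, 804 and 682 in KO/Kd cells. Ssbp2, a cofactor of LIM-domain complexes, read 70.8, 64.8 and 54.7 in Kd and 36.1, 31.2 and 48.2 in KO cells. The 6 genes of other or unsettled function, Tro, Gprasp2, Mturn, 1700007K13Rik, Ccdc184 and Ccdc68, all stayed below 100 in the other groups on average. 1700007K13Rik read 15.2, 14.0 and 11.8 in control, 46.8, 45.4 and 43.2 in KO, 15.2, 15.3 and 11.6 in Kd, 18.7, 18.5 and 22.0 in +/+ tamoxifen and 723, 642 and 773 in KO/Kd cells, with the KO arrays apart from the rest of the low groups. Gprasp2, a partner of G protein-coupled receptors, read 15.3, 13.8 and 12.7 in control, 17.3, 17.04 and 22.1 in KO, 15.2, 15.6 and 16.5 in Kd, 14.8, 16.3 and 12.7 in +/+ tamoxifen and 938, 593 and 961 in KO/Kd cells.

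KO and Kd cells were compared directly, since neither group entered the choice, to ask whether low residual levels of these genes differed between the single perturbations. They often did, and in both directions: 18 genes were higher in KO and 18 higher in Kd cells, 59% of the 61, while 25.1% of all 13382 genes tested were called (16.1% higher in KO and 8.97% higher in Kd). The split over all genes depended on scaling: after quantile normalization 15.2% were higher in KO and 17% in Kd (32.2% called), and with arrays centred on the median 14.3% and 15.9%, while 15 and 19 of the 61 genes were called after the former and 16 and 18 after the latter. Both splits also moved with single arrays. Without KO replicate 1, 20 of the 61 genes were higher in KO and 15 in Kd, beside 21.3% and 5.9% of all genes. Without KO replicate 3 these were 12 and 18, beside 11.6% and 12.2%. Col14a1, on the Kd side, passed the filter on dim probe sets only through the KO/Kd arrays. Without it and the 2 other genes of that kind, 35 of 58 were called. The test was limma on log2(intensity + 16) with Benjamini-Hochberg adjustment over all genes and a threshold of 0.05, and differences on that scale understate the ratio of dim genes. The median difference, KO minus Kd, was -0.01 for the 61 genes and 0.04 for all genes tested. Of the 36 calls, 11 were at least 2-fold on that scale. Tamoxifen differed between these groups too, so that its effect and that of the deletion cannot be told apart here.

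On the KO side the largest differences were those of Serpinb9b (1.56 ± 0.10, adjusted p = 2.37e-08), Nppb (1.53 ± 0.16, adjusted p = 5.07e-06) and Notch3 (1.05 ± 0.12, adjusted p = 9.58e-06), as log2 difference ± SE with limma's adjusted p. 1700007K13Rik (1.03 ± 0.08, adjusted p = 1.3e-07), Tcn2 (0.95 ± 0.14, adjusted p = 0.00016) and Dner (0.88 ± 0.17, adjusted p = 0.00146) followed. Also higher in KO were Stom, Efna3, Krt20, Fabp3, Rragd, Tcim, Abat, Celf5, Ccdc184, Fbxo32, Nkain4 and Prss12, by 0.30 to 0.77. The Notch3 call rests on its brighter probe set. The other read 19.9 ± 2.57 in KO, 17.5 ± 2.08 in Kd and 416 ± 82.8 in KO/Kd cells. For Fbxo32 the call likewise rests on its brightest probe set. A further one that met both limits read 66.6 ± 6.85 in KO and 67.2 ± 5.09 in Kd cells.

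On the Kd side the largest were Foxp2 (-2.91 ± 0.14, adjusted p = 9.94e-10), Tfpi (-2.55 ± 0.13, adjusted p = 1.1e-09) and Tmtc1 (-2.05 ± 0.10, adjusted p = 7.95e-10), where a negative sign means lower in KO. Wnt5b (-1.91 ± 0.08, adjusted p = 1.52e-10), Epha7 (-1.24 ± 0.14, adjusted p = 6.31e-06) and Ptprz1 (-1.10 ± 0.10, adjusted p = 4.78e-07) came next. Also higher in Kd were Fbxo2, Serpinb1a, Gdpd1, Fndc1, Serpinb6b, Ssbp2, Rspo3, Rab27b, Clca3a1, Prxl2b, Crispld2 and Col14a1, with differences of -0.27 to -1.08. Of these, Col14a1 passed the filter on dim probe sets only through the KO/Kd arrays. The Clca3a1 call rests on its brighter probe set, marked as able to bind related transcripts. The other read 16.5 ± 2.81 in KO and 17.2 ± 0.716 in Kd (SD, n = 3), and 152 in KO/Kd cells. For Col14a1 the call likewise rests on its brightest probe set. Its further ones read 13.8 ± 0.966 and 14.4 ± 1.31 in KO, and 15.3 ± 3.51 and 12.9 ± 0.721 in Kd cells. By contrast, further probe sets of Tmtc1 and Gdpd1 were again higher in Kd (50.7 and 113, against 31.9 and 74.7 in KO). For 10 of the 61 genes the tested probe set was not the gene's brightest, and for all 10 the order of the KO and Kd means was the same on the brightest one. Each side held ligands or receptors (4 and 4 of 10), and the secreted and matrix proteins had 2 on the KO side and 4 on the Kd side. The 18 KO-side genes had a median mean of 91.2 in KO, 48.1 in Kd and 1258 in KO/Kd cells, and the 18 Kd-side genes of 37.5, 76.1 and 874.

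**Figure D3:**
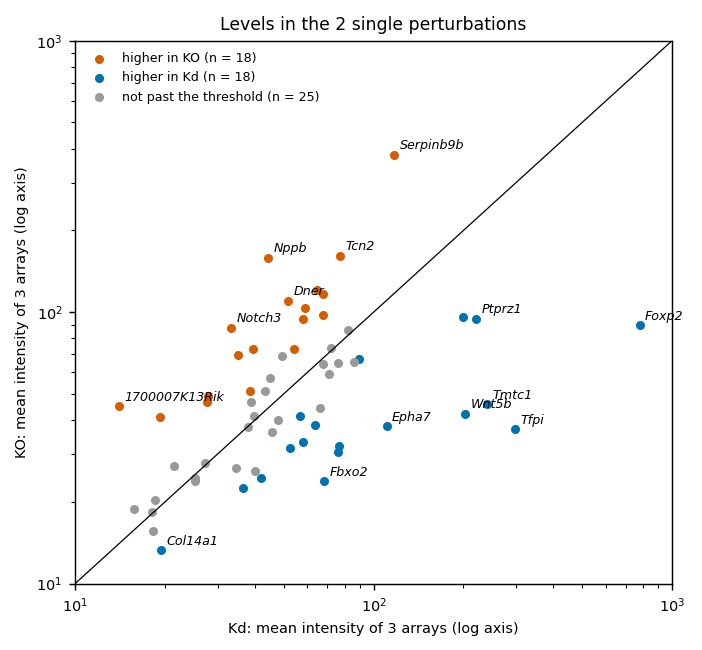
Mean intensity in KO (vertical) against Kd cells (horizontal), both log axes, 1 point a gene, coloured by the limma call, with the line of equal level. The points spread on both sides of the line, with Serpinb9b at 380.1 in KO and Foxp2 at 779 in Kd cells at the edges of the plot, and 25 grey genes did not pass the threshold.

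The +/+ tamoxifen cells received the drug with intact Hdac1, and the choice did not use them. Against KO cells 14 of the 61 genes were higher and 13 lower in +/+ tamoxifen (44.3%, against 24.1% of all genes tested, 11.3% higher and 12.8% lower). Over all genes this split moved with single KO arrays. It was 7.29% higher and 15.3% lower without KO replicate 1, and 17.1% and 9.67% without KO replicate 3. Tfpi was higher by 4.85 ± 0.13, adjusted p = 2.54e-13, Prxl2b by 2.02 ± 0.12, adjusted p = 2.58e-09 and Pdgfd by 1.71 ± 0.21, adjusted p = 1.64e-05. Wnt5b, Rspo3 and Tmtc1 were higher by 1.46, 1.36 and 1.30, and Tcim, Tro, Maob, Fbxo2, Epha7, Serpinb6b, Ptprz1 and Clca3a1 by 0.37 to 1.07. Lower were Dner (-1.84 ± 0.17, adjusted p = 8.53e-07), Notch3 (-1.14 ± 0.12, adjusted p = 3.06e-06) and Fbxo32 (-0.87 ± 0.14, adjusted p = 0.000198), and, by 0.36 to 0.82 on the log2 scale, Nppb, Serpinb9b, 1700007K13Rik, Abat, Stom, Nkain4, Lpl, Ccdc184, Crispld2 and Prss12. The comparisons of +/+ tamoxifen and of Kd with KO share the KO arrays.

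Against Kd cells 13 genes were higher and 16 lower in +/+ tamoxifen (47.5%, against 21.6% of all genes tested, 13.2% higher and 8.41% lower). Over all genes this split also moved with scaling, with 12.2% up and 14.1% down under quantile normalization, and 12% up and 12.6% down when arrays were centred on the median. Higher were Tfpi (2.30 ± 0.13, adjusted p = 2.32e-09), Pdgfd (1.80 ± 0.21, adjusted p = 1.21e-05) and Tcim (1.71 ± 0.18, adjusted p = 3.59e-06), followed by Prxl2b at 1.66, Tro at 0.92 and Maob at 0.89, and then Rspo3, Serpinb9b, Nppb, Tcn2, Fabp3, Krt20 and 1700007K13Rik at 0.25 to 0.84. Lower were Foxp2 (-2.58 ± 0.14, adjusted p = 2.32e-09), Fndc1 (-1.002 ± 0.16, adjusted p = 0.000328) and Dner (-0.96 ± 0.17, adjusted p = 0.000743). Serpinb1a, Tmtc1 and Crispld2 followed at -0.94, -0.75 and -0.71, and Rab27b, Epha7, Ptprz1, Lpl, Ssbp2, Ifitm1, Fbxo2, Fbxo32, Wnt5b and Nkain4 lay at -0.30 to -0.70. The median difference of the 61 genes was -0.02 against KO and -0.06 against Kd, beside 0.01 and 0.05 for all genes. The +/+ cells differ from the floxed cells in genotype and so in origin, and origin, viruses and the state of the targeted gene cannot be told apart in these comparisons.

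For 20 genes no call was made in any of the 3 comparisons. They were Gpx3, Clca3a2, Itih5, Syt17, Rgcc, Chodl, Aif1l, Lrrc15, Gprasp2, Igf1, Mturn, Aass, Dsp, Ccdc68, Cercam, Adamts7, Rtn2, Galnt12, S100g and Ndrg2. A missed threshold does not show equal levels. All 61 passed the filter on dim probe sets, and 58 would have passed it without the KO/Kd arrays, the exceptions being Col14a1, Gprasp2 and S100g. In KO, Kd and +/+ tamoxifen cells alike, 17 genes were silent and 45 lay below 100 on these probe sets.

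Other probe sets of the same genes share their RNA and arrays. Of the 61 genes 38 had 68 further probe sets, of which 8 met both limits themselves and so belong to the choice. Of the other 60, in 36 genes, 49 were at least 2-fold higher in KO/Kd than in control cells, which was so for 9.86% of all 34945 probe sets with 1 symbol, and 12 stayed below 50 in all 5 groups. These values come from the contrast that chose the genes and are a description. For 12 genes a further probe set was not silent in control. Serpinb1a had one at 365 ± 77.05 in control and 5476 ± 178 in KO/Kd cells (SD, n = 3), with 209 ± 10.2 in KO and 988 ± 38.1 in Kd. Tcn2 had one at 632 ± 53.6 in control, 1002 ± 92.7 in KO, 615 ± 18.1 in Kd and 5601 ± 80.8 in KO/Kd cells. Ssbp2 had one at 1734 ± 151 in control, 1569 ± 182 in KO, 2258 ± 25.1 in Kd and 3634 ± 83.8 in KO/Kd, so this gene was well above the floor in control cells. Tcim had one at 230.3 ± 13.2 in control, 609 ± 66.2 in KO, 348 ± 56.4 in Kd and 1207 ± 91.9 in +/+ tamoxifen cells. None of these probe sets was silent in any group. The others were Rab27b (186 ± 21.4 in control), Aif1l (89.7 ± 9.55), Ptprz1 (101 ± 10.7), Gdpd1 (51.9 ± 0.895), Tfpi (up to 99.7 ± 6.67), Crispld2 (178 ± 36.1), Dner (68.3 ± 29.2) and Stom (up to 292 ± 13.5). For 10 genes the probe set that met the limits was not the brightest of the gene: Tcn2, Serpinb1a, Rab27b, Ptprz1, Tfpi, Tcim, Crispld2, Dner, Stom and Ssbp2.

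Foxp2 had 5 further probe sets and Tfpi 3. The brightest further Foxp2 probe set read 42.5 ± 20.1 in control, 86.9 ± 16.8 in KO, 635 ± 89.9 in Kd and 756 ± 101 in KO/Kd cells. Of the other 4, a pair were also higher in Kd than in KO cells, at 442 ± 74.6 against 52.04 ± 13.01 and 87.9 ± 3.96 against 22.8 ± 1.29 respectively, and the remaining pair stayed below 25 in every group. The brightest further one of Tfpi read 78.4 ± 16.2 in control, 86.97 ± 11.2 in KO, 616 ± 40.1 in Kd, 1106 ± 59.1 in KO/Kd and 2482 ± 73.5 in +/+ tamoxifen cells. All 3 further Tfpi probe sets had +/+ tamoxifen highest, then KO/Kd, then Kd, and on 1 of them KO (74.2 ± 24.9) was below control (99.7 ± 6.67).

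Near the limits the choice divides genes of similar behaviour. Just inside the upper limit lay Ndrg2 (502.5 in KO/Kd cells), Maob (521) and Ssbp2 (523), and just outside it Apoe (11.1 in control, 495 in KO/Kd), Aplp1 (28.5 and 465) and Jam2 (23.5 and 457). Just inside the lower limit lay Foxp2 (48.6 in control), Wnt5b (47.3) and Ifitm1 (46.8), and just outside it Psmb8 (50.1 in control, 1008 in KO/Kd), Ddit4l (51.1 and 620.4) and Pcdhb9 (52.8 and 790).

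The 61 genes lay on 17 chromosomes, 4 of them (Maob, Gprasp2, Tro and S100g) on the X chromosome, and some were close neighbours. Places were counted in the RefSeq order of protein-coding genes of GRCm38.p6. In it, 5 pairs of successive genes among the 61, which involve 9 of them, were at most 5 places apart. Clca3a1 and Clca3a2 are adjacent in this order on chromosome 3, Ptprz1 and Aass on chromosome 6, and Ccdc68 and Rab27b on chromosome 18. On chromosome 13 the clade B serpins Serpinb1a, Serpinb6b and Serpinb9b stand with 1 protein-coding gene between each and the next. The gene between Serpinb6b and Serpinb9b, Serpinb9, was already at 829 in control and at 948 in KO, 1679 in Kd and 7689 in KO/Kd cells. The next serpins on the far side stayed at the floor: Serpinb1b had 14.6 in control and 32.7 in KO/Kd, Serpinb9c 18.1 and 26.3, and Serpinb9d 12.2 and 15.5. Beside the Clca pair, Clca3b, Clca4b, Clca4a, Clca1 and Clca2 lay between 14.3 and 19.5 in control and up to 21.7 in KO/Kd cells. Beside Aass, Fezf1 had 17.3 in control and 18.6 in KO/Kd, while Fam3c on the far side of Ptprz1 was bright in both, at 10466 and 16298. Whether adjacency is more common than for other genes was not tested.

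**Figure D4:**
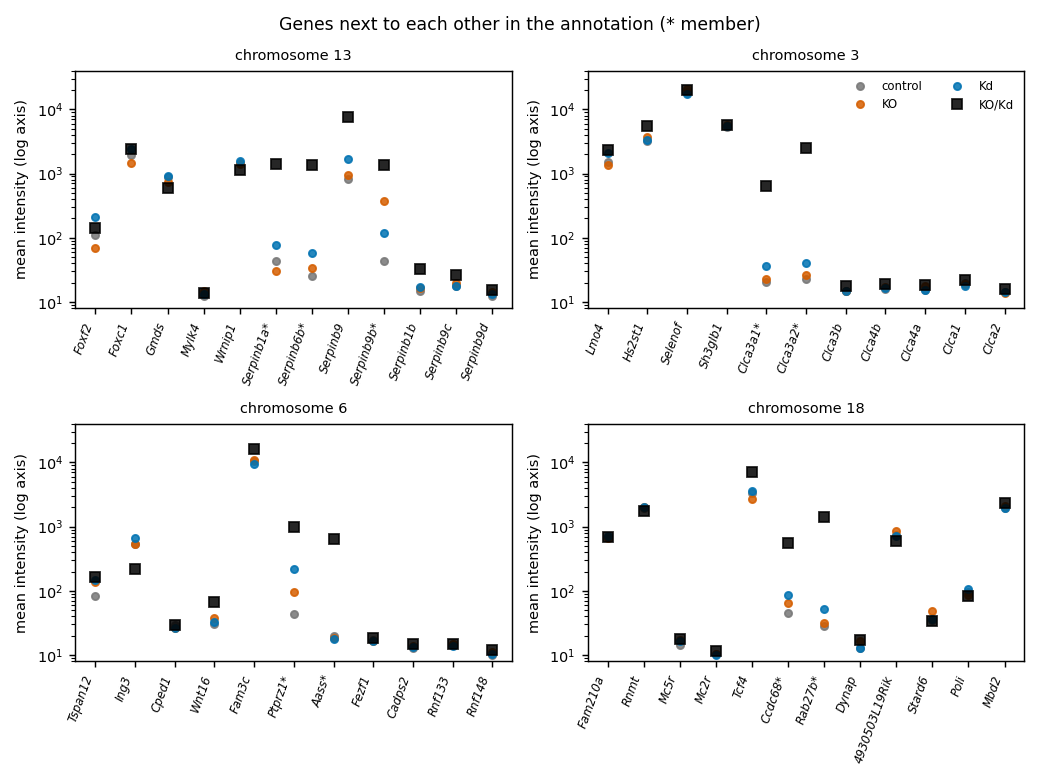
Mean intensity of 3 arrays (log axis) for the protein-coding genes around the 4 sites with neighbouring members, in annotation order, members marked with an asterisk. Genes without a probe set are not drawn. The members lie below 50 in control cells, at 18.1 to 380.1 in KO and Kd cells and at 563 to 2522 in KO/Kd cells, and some direct neighbours, such as Clca3b and Fezf1, stay at the floor in all groups.

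Promoters of the genes, matched in the RefSeq table for 44 of the 61, had a CpG content between that of genes silent in control and that of genes bright in control, and slightly below that of all genes on the array. Over the 250 bases before the start, the median ratio of observed to expected CpG was 0.5696 for the 44 genes (quartiles 0.3141 and 0.7243), 0.3499 for 6531 genes below 50 in control 0.7874 for 5252 genes of at least 500 in control and 0.6329 for all 14368 genes on the array with a promoter in the table. A ratio of at least 0.6 was found in 19 of the 44 (43.18%), in 28.31% of the genes below 50, in 77.82% of the genes of at least 500 and in 53.49% of all. The range among the genes shown at the start ran from 0.2756 for Nppb to 1.024 for Wnt5b. The genes higher in Kd than KO had a median of 0.7239 (13 promoters), those higher in KO 0.5616 (13) and the rest 0.4577 (18), and these differences carry no test.

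Short motifs were counted on both strands of the same 250 bases. The GC box GGGCGG, which itself holds a CG dinucleotide, was present in 28 of the 44 (63.64%), beside 33.87% of genes below 50 in control, 64.68% of genes of at least 500 and 49.97% of all genes on the array. TATAAA was present in 7 (15.91%, beside 12.86%, 5.998% and 9.006%), as in Nppb and Krt20 above, CCAAT in 10 (22.73%, beside 33.93%, 36.94% and 35.73%), TGANTCA in 4 (9.091%, beside 7.748%, 3.408% and 5.547%) and CANNTG in 21 (47.73%, beside 68.27%, 52.7% and 60.79%). A match describes these letters only.

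**Figure D5:**
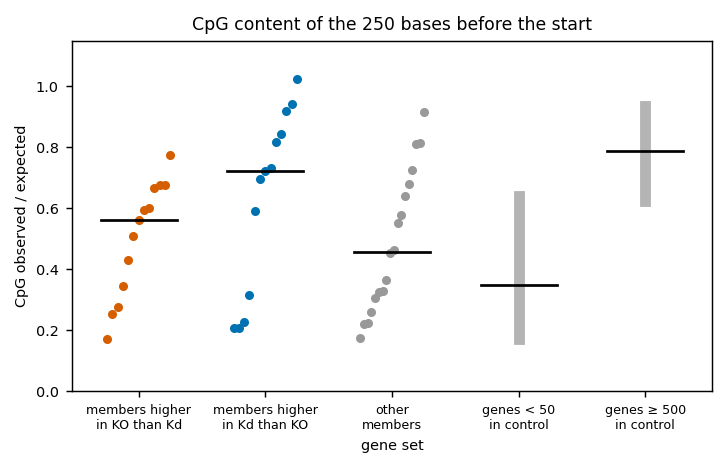
Ratio of observed to expected CpG in the 250 bases before the start, 1 point a promoter for members higher in KO than Kd, higher in Kd than KO and not called, with medians as black lines. Grey bars span the quartiles of all genes below 50 and of at least 500 in control; the member medians of 0.5616, 0.7239 and 0.4577 lie between the 2 reference medians of 0.3499 and 0.7874.

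The labelled cell type was checked with markers. Of 14 fibroblast markers 11 were on in control and 11 in KO/Kd cells, and the sum of 185550 to 215920 over all arrays is carried by the brightest, such as Vim (48238 in control) and Col1a2 (40878). Fap (13.3 in control and 58.7 in KO/Kd) and Lum (19.2 and 81.2) were silent in control, Thy1 lay between the limits (280.4 and 328), and S100a4 read 20642 in control and 948 in KO/Kd cells. Markers of other cell types were mostly silent, and their part in the levels of the 61 genes was not tested. Some were bright, and the sums below include them. In control and KO/Kd cells the chondrocyte markers Col2a1 and Acan read 9162 and 10222, and 348 and 1812. The muscle marker Acta1 read 2051 and 265, the neuron marker Stmn2 1169 and 5209 and the adipocyte marker Fabp4 765 and 1030. The KO/Kd mean was above the control mean for all 10 endothelial, 10 neuron, 10 germ cell and 8 glia markers. This was also so for 8 of 10 macrophage and blood cell, 8 of 10 muscle, 9 of 10 chondrocyte and 5 of 8 adipocyte markers. Array medians were higher in KO/Kd cells too (29.1 to 30.7, against 24.1 to 25.1 in control). Their part in these counts was not tested, and no share of all genes is given beside the counts. Some differences were small and near the floor, as for Mael (13.3 in control and 13.99 in KO/Kd). Others were larger, as for Kdr (15.7 and 77.2). Of 10 endothelial markers 9 were silent in control and 8 in KO/Kd (summed level 250 to 277 and 433 to 502), of 10 macrophage and blood cell markers 9 and 8 (218 to 251 and 232 to 309), of 8 glia and Schwann cell markers 7 and 7 (180.1 to 218 and 324 to 354), and of 10 germ cell markers all in both (154 to 164 and 183 to 189). Of 10 neuron markers 7 were silent in both groups (2251 to 2541 and 7483 to 8737), of 10 muscle markers 9 and 7 (2019 to 2442 and 648 to 867), and of 10 chondrocyte markers 6 and 7 (9856 to 10424 and 11750 to 14524). Of 8 adipocyte markers 6 were silent in both (1180.0 to 1273 and 2291 to 2853), and Lpl, the only one of the 61 on any of these lists, is part of that sum.

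Lists around the deacetylases held none of the 61 genes. Of all 13382 genes tested, 16.1% were higher and 8.97% lower in KO than in Kd cells (25.1% called). These shares stand beside each count below. Of 32 tested subunits of the HDAC1/2 complexes, 3 were higher and 5 lower in KO than in Kd cells, with Hdac2 (2.88 ± 0.07, adjusted p = 7.58e-13) and Hdac1 (-4.46 ± 0.15, adjusted p = 1.01e-11) by far the largest. Both are the genes that the perturbations targeted. Neuronal targets of the repressor REST, which works through these complexes, had 0 higher and 2 lower of 22 tested in KO against Kd (Stmn2 and Tubb3 at -1.75 and -1.47), and 24 of 28 measured were silent in control and 17 in KO/Kd cells. Of 12 tested genes that HDAC inhibitors are known to raise, 6 were higher and 3 lower in KO than in Kd. The largest differences were those of Stmn2, at -1.75, and of Cdkn1a, the cell cycle inhibitor p21, at 1.64. Stmn2 and Tubb3 belong to both this list and that of REST targets. Of 17 chemokines 7 were higher and 5 lower, with Cxcl3 at -3.78. Of 3 tested genes of the germline and X-linked list 0 were higher and 1, Tdrkh, lower (-0.49), and 11 of 12 measured were silent in control and in KO/Kd cells. Median differences were 0.00 for the complexes, 0.03 for REST targets, 0.34 for the inhibitor list, 0.03 for chemokines and 0.15 for the last, beside 0.04 for all genes.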

How the data were processed

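The deposited table, made by the authors, holds linear intensity values for 45037 probe sets on 15 Affymetrix Mouse 430v2 arrays of total RNA, which per the labels were labelled with a 1-cycle in vitro transcription protocol. Their summarisation, background correction and scaling are not given in the sources used here. Of the probe sets 34945 had 1 symbol, 932 several and 9160 none; only the first kind was used. No pair of arrays was identical.

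The genes, their roles and the 15 gene lists were chosen with earlier results of these data known, and the roles were assigned once the genes were known. The pick among a gene's probe sets used all 15 arrays.

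A linear model (limma 3.58.1, R 4.3.3) was fitted to log2(intensity + 16) of all 15 arrays with 1 coefficient per group, for 13382 genes above their array's 40th percentile (18.8 to 22.5) on at least 3 arrays, with Benjamini-Hochberg adjustment and a threshold of 0.05. Each gene was represented by its brightest probe set, and the 61 genes by the one that met the limits. The median standard error was 0.0868. Precision is limited by the number of arrays. The procedure was tested on simulated data.

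Values on every array were given mainly by a rule: genes highest in KO/Kd (8) and in KO, Kd or +/+ tamoxifen (6 each), silent genes, and the 6 largest differences per direction and comparison. Some genes outside this rule, such as Abat and Serpinb6b, were given in full as well. Every one of the 61 could be named, beside genes nearest to the limits, up to 4 genes per list, and neighbours taken by position. Promoters came from a RefSeq table of GRCm38.p6. Alternatives were other limits, scalings, filters, pseudocounts, probe set rules, models and arrays left out.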

Additional observations from a re-analysis of the deposited data

How the results depend on the processing

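The number of genes depended on the limits, which are a choice of scale: 26 with a lower limit of 30, 111 with 100, 126 with an upper limit of 250 and 24 with 1000, against 61. With the upper limit at 250, which also lowers the bar for being on, 1 gene was on in KO, 2 in Kd and 4 in +/+ tamoxifen, against 0, 1 and 1. Other settings moved the number less: 42 with every array past its limit, 51 with the brightest probe set taken first, 56 without _x_at and _s_at probe sets, 47 after quantile normalization and 49 with arrays scaled to a common 75th percentile. Leaving out 1 control array gave 61 to 67 genes and 1 KO/Kd array 58 to 61.

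The counts called were 36 for KO against Kd, 27 for +/+ tamoxifen against KO and 29 against Kd. With arrayWeights they were 24, 20 and 36, while 12.3%, 11.9% and 35.3% of all genes were called, against 25.1%, 24.1% and 21.6%. With each array left out they were 28 to 35, 24 to 30 and 24 to 27. The shares of all genes called were then 18.5% to 27.2%, 18.7% to 26.8% and 15.9% to 18.6%. Among 540 refits of single named genes, over 36 gene and comparison pairs, 1 lost its call: Nppb in +/+ tamoxifen against KO with arrayWeights (-0.69, adjusted p = 0.0926), and the cause was not tested; 0 turned their direction.

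Replicate numbers did not pair the arrays: deviations of same-numbered arrays correlated at -0.16 to 0.134, with 4 of 30 above 0.1. With the number as a replicate block 35, 27 and 27 genes were called, beside 23.5%, 22.5% and 20.2% of all genes. Signals under 50 lie near the array medians, which limits the precision of every ratio to control.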

Other observations

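The mirror of the choice was nearly empty. Of 6376 genes of at least 500 in control, 0 were below 50 in KO, 1 in Kd (Tmem35a), 1 in KO/Kd (Omd, which encodes the matrix proteoglycan osteomodulin) and 2 in +/+ tamoxifen (Rpl39l and Vit). In the other direction, Cxcl3 and Foxp2 were the genes below 50 in control that reached 500 in Kd cells, and Cxcl14, Hoxa9, Lipo3, Sfrp1 and Sox2 those that did so in +/+ tamoxifen cells, by each gene's brightest probe set. These genes are named because the counts are small, after their values were seen, and none of the counts carries a test.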
